A study of Mus musculus with 9 samples.

Results

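SHP099 was compared with vehicle in leukemic myeloid mouse cells, across every gene of the count table. The comparison holds 6 of the 9 libraries of the study: 3 from cells given SHP099 for 24 h and 3 from cells given vehicle, taken by genotype, treatment and replicate number in the labels. All 6 came from Tet2-/-Flt3ITD mice on a C57BL/6 background, which are labelled as lacking Tet2, a gene for an enzyme that oxidises methylated DNA, and as carrying an internal tandem duplication in Flt3, a receptor tyrosine kinase gene. Vehicle cells carry both alleles too, and the 3 wild-type C57BL/6 vehicle libraries are not compared here. Bone marrow was depleted of lineage-positive cells and grown for 5 days in interleukin 3, interleukin 6 and stem cell factor, which yields myeloid blast-like cells. Cultures were set up from individual mice, and each mouse gave 1 vehicle and 1 SHP099 library, so the replicate number names a pair. The dose of SHP099 is not given in the sources used here.

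SHP099 is an allosteric inhibitor that holds the tyrosine phosphatase SHP2, the product of Ptpn11, in its closed form. SHP2 is recruited to activated receptors and their adaptors and is needed for full activation of RAS, which passes the signal through RAF and MEK to ERK. ERK output includes short-lived transcription factors and a set of feedback inhibitors (dual-specificity phosphatases, Sprouty and Spred proteins). The same signal supports growth through MYC, ribosome production and nucleotide synthesis, and myeloid progenitors that stop growing often mature.

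Of 24421 genes in the table, 13004 had enough counts to be tested. Total counts were 30982845 to 45810089 per library. Myeloid progenitor markers were abundant: Mpo, the myeloperoxidase gene, stood at 6603 to 11576 CPM (counts scaled to library size). Markers of mature cells were present too. With vehicle, 9 neutrophil markers summed to 17450 to 18440 CPM, 9 mast cell and basophil markers to 1076 to 1499 CPM and 6 megakaryocyte markers to 1098 to 1478 CPM. The 9 markers of B, T and natural killer cells all stayed below 1 CPM in all 6 libraries, the highest at 0.261 CPM. SHP099 replicate 3 stood apart from the other libraries in RNAs that mostly lack a poly(A) tail. Rn45s, the ribosomal RNA precursor, took 0.276% to 0.357% of counts with vehicle, 0.734% and 0.658% in SHP099 replicates 1 and 2, and 4.33% in replicate 3. Among 32 tested histone genes, a family looked at after values were seen, the summed level was 46.2, 51.7 and 49.3 CPM with vehicle, 59.3 and 61.3 CPM in SHP099 replicates 1 and 2, and 116.2 CPM in replicate 3. In 28 of these genes SHP099 replicate 3 was the highest of the 6 libraries. Rmrp, the RNA of an RNA-processing enzyme, was at 1.6, 0.996 and 0.843 CPM with vehicle and at 2.61, 1.48 and 20.9 CPM with SHP099. The part of RNA quality or library preparation in this was not tested, and counts are given with and without that library.

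**Figure D1:**
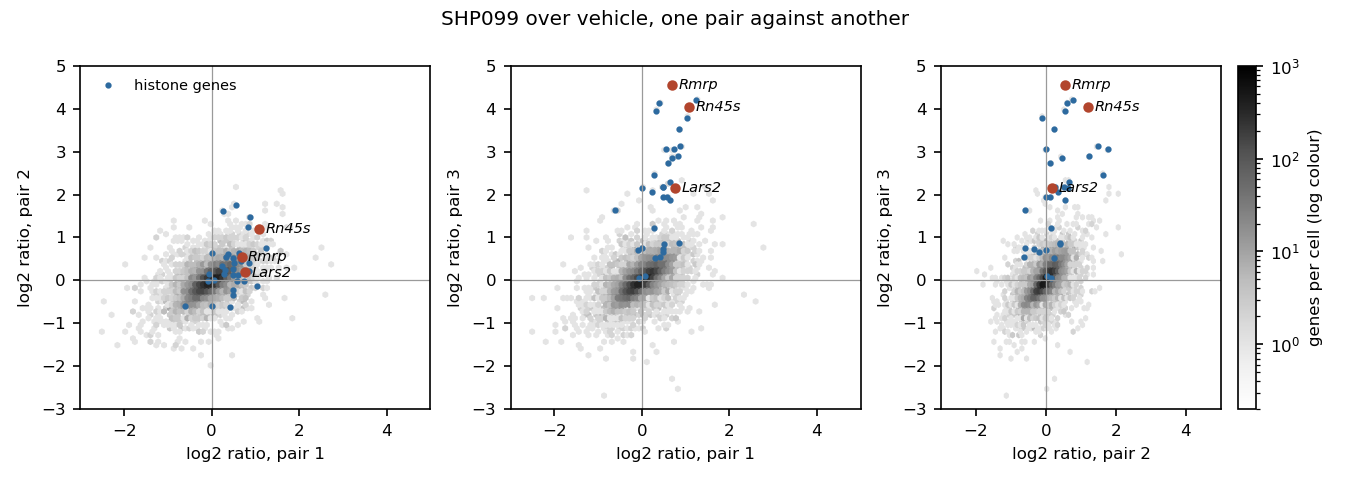
Log2 ratio of SHP099 to vehicle for each of 13004 tested genes in 1 pair (horizontal axis) against another pair (vertical axis), with shading for the number of genes in a cell on a log scale. Most genes lie along the diagonal, while Rn45s, Rmrp, Lars2 and many histone genes (blue) rise further in pair 3 than in pairs 1 and 2.

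Many genes differed between SHP099 and vehicle, most of them by small amounts. With the pair as a block, edgeR's quasi-likelihood test called 5555 of 13004 genes (42.7% of those tested) at an adjusted p of 0.05, 2785 higher (21.4%) and 2770 lower (21.3%). Of all 13004 tested genes, called or not, 4236 were higher and 4117 lower with SHP099 in all 3 pairs. The median change of a called gene was 1.18-fold, and 59 higher and 50 lower genes changed more than 2-fold. Log2 ratios in different pairs correlated at 0.56, 0.54 and 0.55 across genes (Pearson's r), a description, since genes are not independent. The first principal component of the 6 libraries held 35.1% of the variance and placed all vehicle libraries on one side and all SHP099 libraries on the other. In 2422 genes (18.6%) all SHP099 libraries lay above all vehicle libraries, and in 2953 (22.7%) they lay below.

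Without the block the same 6 libraries gave 1121 higher (8.62%) and 1651 lower (12.7%) genes, and each of these 2772 was also called in the same direction with the block. Without pair 3, 13128 genes were tested and 1894 were called higher (14.4%) and 1969 lower (15%). That fit has 1 residual degree of freedom and gave far smaller p-values than the paired fit for some genes, so its counts are descriptions and none of its p-values is printed. Leaving out only SHP099 replicate 3, with no block, gave 531 higher and 854 lower genes. Of the 32 histone genes, 24 were called higher in the paired fit and 6 without pair 3. With no block 3 were called higher by edgeR, and 0 with SHP099 replicate 3 left out as well (9 at an unadjusted p under 0.05).

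Ptpn11 (chromosome 5, 121130533 to 121191397 on GRCm38) encodes the target of the drug. It was at 274, 330 and 275 CPM with vehicle and at 282, 319 and 293 CPM with SHP099, overlapping ranges (log2 fold change 0.03 ± 0.04, SE of the paired fit, edgeR adjusted p = 0.63). Here and below the SE comes from that fit, which borrows spread across genes. It is not the spread between the 3 pairs. With a trend on transcript length and GC content removed, the change was 0.11 and the adjusted p was 0.018. Tet2 (chromosome 3, 133463679 to 133545139) was at 14.6, 14.8 and 16.9 CPM with vehicle and at 10.9, 13.2 and 13 CPM with SHP099. It fell by 0.32 ± 0.07 on the log2 scale (edgeR adjusted p = 0.00054), a call lost without the block (adjusted p = 0.056) and with the length trend removed (0.17). Flt3 was low, at 1.5 to 2.89 CPM with vehicle and 1.71 to 2.99 CPM with SHP099 (log2 fold change 0.09 ± 0.14; adjusted p = 0.64). Counts per gene do not show the activity of the phosphatase, the deleted part of Tet2 or the duplication in Flt3.

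Genes that ERK signalling switches on fell together. Of 27 tested RAS-ERK output genes, 19 were lower and 1 higher in the paired fit, with a median log2 fold change of -0.31 against 0.00 over all tested genes. Over all tested genes 21.3% were lower and 21.4% higher in that fit. Without the block 11 were lower (12.7% over all tested genes), and without pair 3, 14 (15%). Dusp6 (chromosome 10, 99263231 to 99267489), a phosphatase that switches ERK off and is itself induced by ERK, was at 44.7, 44 and 48.3 CPM with vehicle and at 29.9, 29.3 and 29.3 CPM with SHP099. All 3 treated libraries lay well below all vehicle libraries, a fall of 0.63 ± 0.05 on the log2 scale (edgeR adjusted p = 2.7e-11). Spred2, an inhibitor of RAS activation, was at 26.6, 28.5 and 29.3 CPM and then at 17.6, 18.7 and 18.9 CPM, again without overlap (-0.61 ± 0.06; adjusted p = 6.0e-10). Etv5, an ETS transcription factor downstream of ERK, was at 12.3, 12.6 and 13.8 CPM and then at 6.78, 7.32 and 6.77 CPM (-0.89 ± 0.08; adjusted p = 4.2e-10). Its relative Etv4 fell from 2.07 to 2.51 CPM down to 0.834 to 1.25 CPM.

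Egr1, an immediate early transcription factor, differed between mice as well. It was at 112, 81.1 and 66.1 CPM with vehicle and at 69.5, 41.1 and 27.3 CPM with SHP099. The ranges overlapped because mouse 1 was high and mouse 3 low under both treatments, yet each pair fell, by unequal amounts. The paired fit put the fall at 0.97 ± 0.06 on the log2 scale (edgeR adjusted p = 2.6e-13 with the block and 0.089 without). Fos and Jun, partners in the AP-1 factor, fell by 0.27 and 0.15 with the block and did not pass without it (adjusted p = 0.55 and 0.22). Phlda1 was the 1 member that rose (0.33 ± 0.10; adjusted p = 0.0084, and 0.12 without the block). Dusp4 and Dusp5, phosphatases of the same family as Dusp6, had log2 fold changes of -0.22 ± 0.11 and 0.06 ± 0.08 and did not pass (adjusted p = 0.11 and 0.58).

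**Figure D2:**
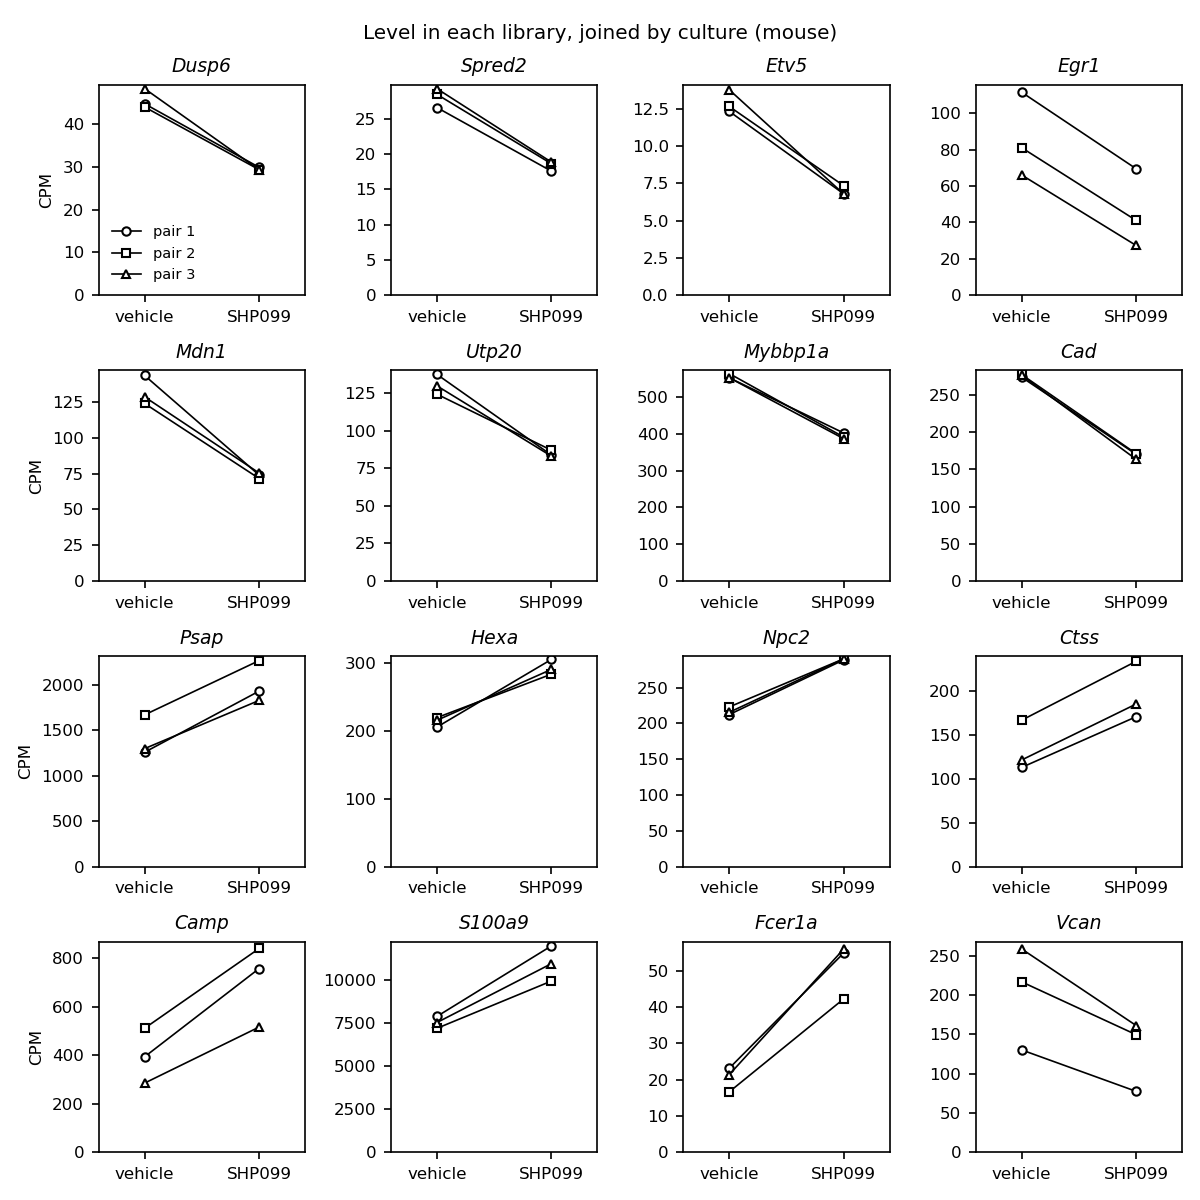
CPM (vertical axis, from 0) in each of the 6 libraries for 16 genes, with a line joining the vehicle and the SHP099 library of each mouse (circle, square and triangle for pairs 1 to 3). Lines fall for the ERK output, nucleolar and Cad panels and for Vcan, and rise for the lysosomal, granule and Fcer1a panels; Egr1 and Vcan differ as much between mice as between treatments.

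Upstream components of the pathway included called genes in both directions, beside 21.4% higher and 21.3% lower over all tested genes. Without the block those shares were 8.62% and 12.7%. Of 18 tested genes for SHP2, SHP1 and their adaptors, 8 were higher and 4 lower; Cbl, a ubiquitin ligase that downregulates receptors, fell by 0.54 ± 0.04 and Lair1, an inhibitory receptor that recruits SHP1, rose by 0.33 ± 0.04. Of 16 RAS, RAF, MEK and ERK genes, 4 were higher and 1 lower. Mapk3, which encodes ERK1, went from 159, 158 and 156 CPM to 224, 197 and 201 CPM (0.39 ± 0.04; adjusted p = 5.5e-09). Of 13 RAS GTPase-activating and exchange factor genes, 5 were lower and 2 higher, and Rasa2, which switches RAS off, fell by 0.71 ± 0.05. Of 20 growth factor and cytokine receptor genes, 10 were higher and 3 lower (2 and 2 without the block). Csf2rb2, a chain of the interleukin 3 receptor, was at 340, 495 and 429 CPM and then at 460, 653 and 524 CPM, higher in each pair with overlapping ranges (adjusted p = 2.3e-08, and 0.14 without the block). Igf1r, the insulin-like growth factor receptor gene, fell by 0.39 ± 0.04. STAT5 and cytokine feedback targets split, 7 of 16 higher and 2 lower, with Pim2 up by 0.45 ± 0.06 and the related kinase gene Pim3 down by 0.42 ± 0.05.

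Genes of ribosome assembly were lower almost throughout. Of 55 tested nucleolar ribosome biogenesis genes 47 fell and 0 rose in the paired fit, 42 fell without the block, 41 without pair 3, and 47 with the length trend removed. Over all tested genes the shares called lower were 21.3%, 12.7%, 15% and 18.6% in the same order. The median log2 fold change was -0.28. Mdn1 (chromosome 4, 32657119 to 32775217), an ATPase that remodels the large ribosomal subunit, was at 144, 124 and 129 CPM with vehicle and at 73.9, 71.6 and 75.4 CPM with SHP099 (-0.84 ± 0.04; edgeR adjusted p = 3.4e-15). Its change was -0.50 with the length trend removed. Utp20, a part of the small subunit processome, was at 138, 124 and 130 CPM and then at 83.8, 87 and 83 CPM. Mybbp1a, a nucleolar protein, was at 552, 564 and 553 CPM and then at 402, 391 and 387 CPM. In these 3 genes the treated libraries lay far below every vehicle library. Ncl, the abundant nucleolin gene, fell from 2508, 2400 and 2323 CPM to 1855, 1933 and 1871 CPM, among the 5 largest losses in CPM. Of 19 RNA polymerase I and III subunit genes, 9 were lower and 2 higher, with Polr1a, the largest polymerase I subunit, down by 0.55 ± 0.04. Rn45s, the ribosomal precursor RNA, was at 3478, 2844 and 2745 CPM with vehicle and at 7381, 6546 and 45372 CPM with SHP099. The symbol also covers the sequence of mature ribosomal RNA, and the counts do not tell the precursor from mature RNA carried into the libraries. Its log2 fold change was 2.04 ± 0.28 (edgeR adjusted p = 9.5e-07), and 1.14 without pair 3. The log2 ratios in pairs 1 to 3 were 1.09, 1.20 and 4.05, a wider spread than that SE.

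The promoters of the nucleolar genes were read for the E-box CACGTG, the core site of MYC and of the related MITF and TFE factors. The search used 1 window a gene, 250 bases before to 50 after the RefSeq start on GRCm38.p6, the first window listed, on both strands. It was 1 of 7 motifs searched, all chosen after the values were seen; a match is a description of the sequence only. Windows were at hand for 9890 of the tested genes, and 10.2% of them held CACGTG. Among nucleolar genes 13 of 47 did (27.7%), among lysosome genes 9 of 27 (33.3%), and among RAS-ERK output genes 2 of 17 (11.8%). Of the other lists, the MYC, MAX and MXD network (4 of 11), dendritic cell genes (2 of 6) and myeloid transcription factors (4 of 14) had shares above that of the nucleolar list. The longer palindrome TCACGTGA, which contains it, was in 1.94% of all windows, in 0 of 47 nucleolar windows and in 5 of 27 lysosome windows. GTCACGTG, which overlaps both, was in 4.27% of all, in 2 of 47 nucleolar and in 6 of 27 lysosome windows. The ETS site CCGGAAGT was in 8.38% of all, 10 of 47 nucleolar, 0 of 27 lysosome and 0 of 17 RAS-ERK windows. The AP-1 site TGANTCA was in 5.21% of all windows and in 0 of 47, 4 of 27 and 0 of 17 in the same order; the CRE site TGACGTCA in 3.25% and in 2, 1 and 1; and the TATA sequence TATAAA in 7% and in 3, 5 and 2. The sites, in capitals within their flanks, are shown for the called genes of smallest p with a match, 3 nucleolar genes for CACGTG and 3 lysosome genes for the longer TCACGTGA, so the directions of these genes follow from how they were picked. Of the 13 nucleolar genes with CACGTG at least 11 were called, and of the 5 lysosome genes with TCACGTGA 3 were. The other 2 lysosome genes, Atp6v1a and Mcoln1, had log2 fold changes of 0.02 and 0.07 and did not pass. Genes on 1 chromosome were left out of the sites shown and of the count of called nucleolar genes, so that count is a minimum. In the 3 nucleolar genes shown the E-box begins 38 to 41 bases into the transcript, and the run ends where the window ends. Over the 11 called nucleolar genes its first base ran from -215 (Rrn3) to 41 (Mybbp1a) relative to the start.
Mdn1, chr4:32657145-32657168, plus strand: gaattccttcacCACGTGtgtgtc
Utp20, chr10:88826765-88826789, minus strand: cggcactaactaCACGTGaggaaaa
Mybbp1a, chr11:72441355-72441376, plus strand: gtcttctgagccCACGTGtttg
Ctsd, chr7:142387908-142387937, minus strand: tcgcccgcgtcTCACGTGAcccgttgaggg
Atp6v0d1, chr8:105566050-105566079, minus strand: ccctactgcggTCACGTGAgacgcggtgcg
Gla, chrX:134601215-134601244, minus strand: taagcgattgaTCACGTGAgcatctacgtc

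Nucleotide synthesis and chaperone genes were mostly lower too, while other growth lists were called in both directions. Over all tested genes 21.4% were higher and 21.3% lower with the block. Without the block 8.62% were higher and 12.7% lower, and without pair 3, 15% were lower. Of 24 purine and pyrimidine synthesis genes, 14 were lower and 2 higher (11 and 0 without the block). Cad, which carries the first steps of pyrimidine synthesis, was at 274, 278 and 277 CPM and then at 170, 171 and 164 CPM, with little spread in either group (-0.71 ± 0.04; adjusted p = 1.2e-14). Pfas, a purine synthesis enzyme, went from 129, 123 and 125 CPM to 86.6, 86.7 and 82.8 CPM. Of 27 heat shock and chaperone genes, 20 were lower and 0 higher, but 14 were lower without the block and 9 without pair 3. Hsp90ab1 had the largest loss in CPM of all named genes, from 4142, 4274 and 4121 CPM to 3556, 3532 and 3506 CPM (-0.24 ± 0.06; adjusted p = 0.0014). Of 26 ATF4 and amino acid response genes 10 were lower and 1 higher, among them Slc7a11, the cystine transporter gene, down by 0.61 ± 0.07. Myc itself fell by little, from 338, 309 and 323 CPM to 289, 274 and 285 CPM (-0.19 ± 0.04; adjusted p = 0.00021), and 4 of 12 genes of the MYC, MAX and MXD network were lower and 4 higher. Polyamine genes split, 4 of 8 higher and 3 lower. Cholesterol and SREBP genes split as well, 9 of 28 higher and 7 lower: Fasn, the fatty acid synthase gene, fell from 664, 596 and 631 CPM to 409, 375 and 362 CPM, while Fdps, of the sterol pathway, rose by 0.25 ± 0.04. Of 25 glycolysis and pentose phosphate genes 4 were higher and 3 lower, both below the shares over all tested genes. Hk2, the inducible hexokinase gene, was 1 of those lower, by 0.46 ± 0.04. Among nuclear long noncoding and small nucleolar RNA host genes 10 of 14 fell and 0 rose. Malat1, a nuclear long noncoding RNA, went from 416, 261 and 317 CPM to 139, 135 and 181 CPM (-1.11 ± 0.07). It had the largest decrease among genes called with and without the block, without overlap, whose higher group had a mean of at least 5 CPM. Predicted gene models and clone names were left out of that ranking. Snord22, a small nucleolar RNA, and its host Snhg1 fell by 1.05 ± 0.11 and 0.43 ± 0.04, and counting may split their shared reads.

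Cell cycle genes were called in both directions, beside 21.4% higher and 21.3% lower over all tested genes. Those shares were 8.62% and 12.7% without the block, and 21.7% and 18.6% with the length trend removed. The G1/S and G2/M lists held more lower than higher genes. Of 15 genes for D cyclins, CDK4/6 and their inhibitors, 3 were lower and 4 higher. Ccnd2, a D cyclin that drives entry into the cell cycle, was at 289, 290 and 268 CPM and then at 194, 197 and 171 CPM, without overlap (-0.59 ± 0.04; adjusted p = 5.8e-13). Cdk6, its kinase partner, was at 73.3, 76.7 and 75.9 CPM and then at 51.3, 45.6 and 50 CPM (-0.62 ± 0.05). Ccnd3 rose by 0.18 ± 0.04, and the kinase inhibitor genes Cdkn2d and Cdkn2c rose by 0.40 ± 0.04 and 0.35 ± 0.06. Of 32 G1/S and DNA replication genes 10 were lower and 5 higher (7 and 2 without the block, 8 and 3 with the length trend removed). Of 29 G2/M and mitotic genes 11 were lower and 2 higher (6 and 2 without the block, 11 and 3 with the length trend removed). Mki67, a proliferation marker, went from 1196, 1072 and 1069 CPM to 905, 879 and 848 CPM (-0.34 ± 0.05), and to -0.11 with the length trend removed. Of 20 p53 target genes 6 were higher and 5 lower. Of 7 pro-survival BCL2 family genes 3 were higher, including Bcl2l1, the BCL-XL gene (0.23 ± 0.05), and near-identical Bcl2a1 copies whose reads counting may split. Of 9 pro-apoptotic members 2 were higher, including Bmf (0.50 ± 0.08). Without the block 1 pro-survival gene and 0 pro-apoptotic genes were higher.

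**Figure D3:**
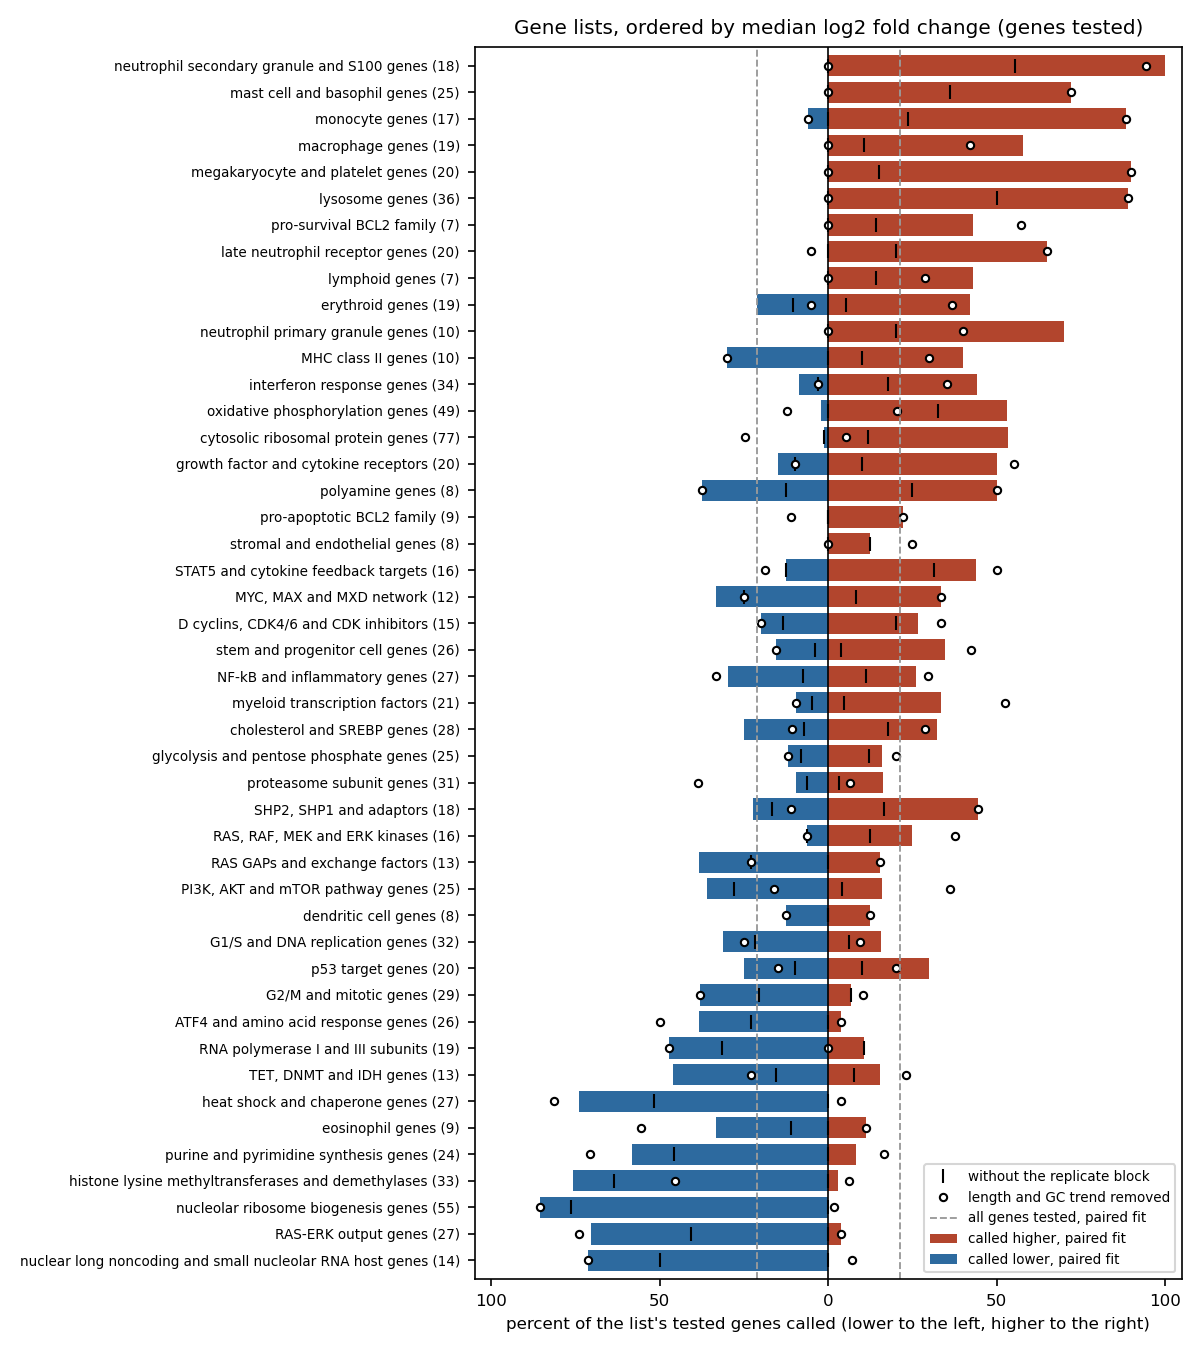
Share of each list's tested genes (number in brackets) called lower (left, blue) or higher (right, red) in the paired fit, for 46 lists ordered by median log2 fold change, with black ticks for the fit without the block, open circles for the length and GC trend removed and dashed lines for all tested genes (21.3% lower, 21.4% higher). Granule, mast cell, monocyte, megakaryocyte and lysosome lists lie far to the right. RAS-ERK, nucleolar, chaperone, nuclear noncoding RNA and histone lysine methyltransferase and demethylase lists lie far to the left. Circles for ribosomal protein and oxidative phosphorylation genes lie well away from their bars.

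Most lysosome genes rose. Of 36 tested, 32 were higher and 0 lower in the paired fit, 18 higher without the block, 25 without pair 3 and 32 with the length trend removed, with a median log2 fold change of 0.24. Over all tested genes the shares called higher were 21.4%, 8.62%, 14.4% and 21.7% in the same order. Hexa, a chain of the enzyme that trims gangliosides, was at 205, 219 and 215 CPM with vehicle and at 305, 283 and 290 CPM with SHP099 (0.46 ± 0.04; adjusted p = 4.2e-10). Npc2, a cholesterol carrier, was at 212, 223 and 215 CPM and then at 289, 290 and 290 CPM. The treated libraries lay clear of the vehicle libraries in both genes. Ctsd, an aspartyl protease, went from 962, 1039 and 970 CPM to 1458, 1327 and 1328 CPM (0.47 ± 0.05; adjusted p = 7.6e-09). Tfeb and Tfe3, transcription factors of lysosome genes, rose by 0.15 ± 0.05 and 0.12 ± 0.05, calls lost without the block (adjusted p = 0.20 and 0.26). Macrophages, neutrophils and mast cells are rich in lysosomal proteins, and the markers of those cells rose in the same libraries; their part in the lysosome result was not tested.

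Granule genes of maturing neutrophils rose without exception in the list. All 18 tested secondary granule and S100 genes were called higher with the block and without pair 3, 10 without the block and 17 with the length trend removed, with a median of 0.54. Over all tested genes 21.4% were higher with the block, 8.62% without it, 14.4% without pair 3 and 21.7% with the length trend removed. Camp, an antimicrobial peptide, was at 393, 511 and 285 CPM and then at 757, 839 and 516 CPM, so that the lowest treated library was barely above the highest vehicle library although each mouse rose clearly (0.84 ± 0.04; adjusted p = 6.5e-15). Ngp, a granule protein, was at 3237, 2654 and 2125 CPM and then at 5987, 4576 and 3594 CPM. S100a9, a calcium-binding protein of neutrophils, was at 7899, 7208 and 7545 CPM and then at 12002, 9959 and 10970 CPM, and its partner S100a8 was at 3864, 5122 and 4967 CPM and then at 6551, 6854 and 6737 CPM. These were, after Rn45s, among the largest gains in CPM. Fcnb, a lectin of the same granules, was at 179, 109 and 84.9 CPM and then at 294, 164 and 130 CPM; the ranges overlapped and each pair rose (adjusted p = 2.3e-13, and 0.22 without the block). Late neutrophil receptor genes rose in 13 of 20 (4 without the block) and fell in 0. Of 10 primary granule genes, made earlier in maturation, 7 rose, but 2 without the block, and Mpo did not pass (0.05 ± 0.07; adjusted p = 0.66).

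Markers of other myeloid cells rose as well. Of 17 monocyte genes 15 were higher and 1 lower with the block, 14 and 1 without pair 3, and 4 and 0 without the block. Ly6c2, a surface marker of inflammatory monocytes, was at 766, 684 and 798 CPM and then at 1240, 1042 and 1144 CPM, with no overlap (0.61 ± 0.05; adjusted p = 1.1e-11). Vcan, a matrix proteoglycan gene of monocytes, was the 1 that fell: it was at 130, 217 and 259 CPM and then at 77.6, 150 and 161 CPM, lower in every pair with overlapping ranges (-0.65 ± 0.04; adjusted p = 3.4e-13, and 0.19 without the block). Of 19 macrophage genes 11 were higher and 0 lower, with 2 higher without the block, a share near that of all tested genes. Over all tested genes 21.4% were higher and 21.3% lower with the block, 8.62% were higher without it and 14.4% without pair 3. Of 25 mast cell and basophil genes, 18 were higher and 0 lower with the block, 9 without it and 17 without pair 3. Fcer1a (chromosome 1, 173221284 to 173227214), the ligand-binding chain of the high-affinity IgE receptor, was at 23.1, 16.6 and 21.4 CPM and then at 54.9, 42.3 and 56 CPM, a 2.51-fold rise (adjusted p = 3.1e-18). Mcpt2, a mast cell protease, was at 19.5, 7.85 and 8.89 CPM and then at 58.2, 33 and 36.9 CPM, and its close copy Mcpt1 rose by 1.76 ± 0.10; reads of such copies may be split by the counting. Kit, the stem cell factor receptor gene that mast cells share with progenitors, did not pass (0.00 ± 0.04; adjusted p = 0.95), nor did Hdc, the histamine-forming enzyme gene (-0.01 ± 0.04; adjusted p = 0.85).

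Of 20 megakaryocyte and platelet genes 18 were higher and 0 lower with the block, 13 higher without pair 3 and 3 without the block. The lists of this paragraph stand beside 21.4% higher and 21.3% lower over all tested genes with the block. Those shares were 8.62% and 12.7% without the block, and 14.4% were higher without pair 3. Pf4, a platelet chemokine, was at 331, 400 and 305 CPM and then at 444, 521 and 519 CPM (0.52 ± 0.05; adjusted p = 1.6e-09). Eosinophil genes did not follow, with 3 of 9 lower and 1 higher: Epx, the eosinophil peroxidase gene, went from 78.8, 118 and 110 CPM to 71, 63.8 and 77.4 CPM (-0.52 ± 0.07; adjusted p = 4.0e-07). Erythroid genes were 8 of 19 higher and 4 lower, stem and progenitor cell genes 9 of 26 higher and 4 lower, and myeloid transcription factor genes 7 of 21 higher and 2 lower, including Cebpb, up by 0.49 ± 0.06 (adjusted p = 2.2e-07, and 0.19 without the block). Without the block the higher and lower counts of these lists were 1 and 2, 1 and 1, and 1 and 1. The summed level of 9 neutrophil markers was 17450 to 18440 CPM with vehicle and 25250 to 30090 CPM with SHP099, that of 9 mast cell and basophil markers 1076 to 1499 CPM and 1559 to 1986 CPM. Of 8 myeloid progenitor markers, Mpo and Kit among them, 5 were called higher and 0 lower with the block. Their sum was 13610 to 20140 CPM with vehicle and 14380 to 20590 CPM with SHP099, overlapping ranges. In bulk RNA, more cells of a type and more RNA per cell cannot be told apart.

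**Figure D4:**
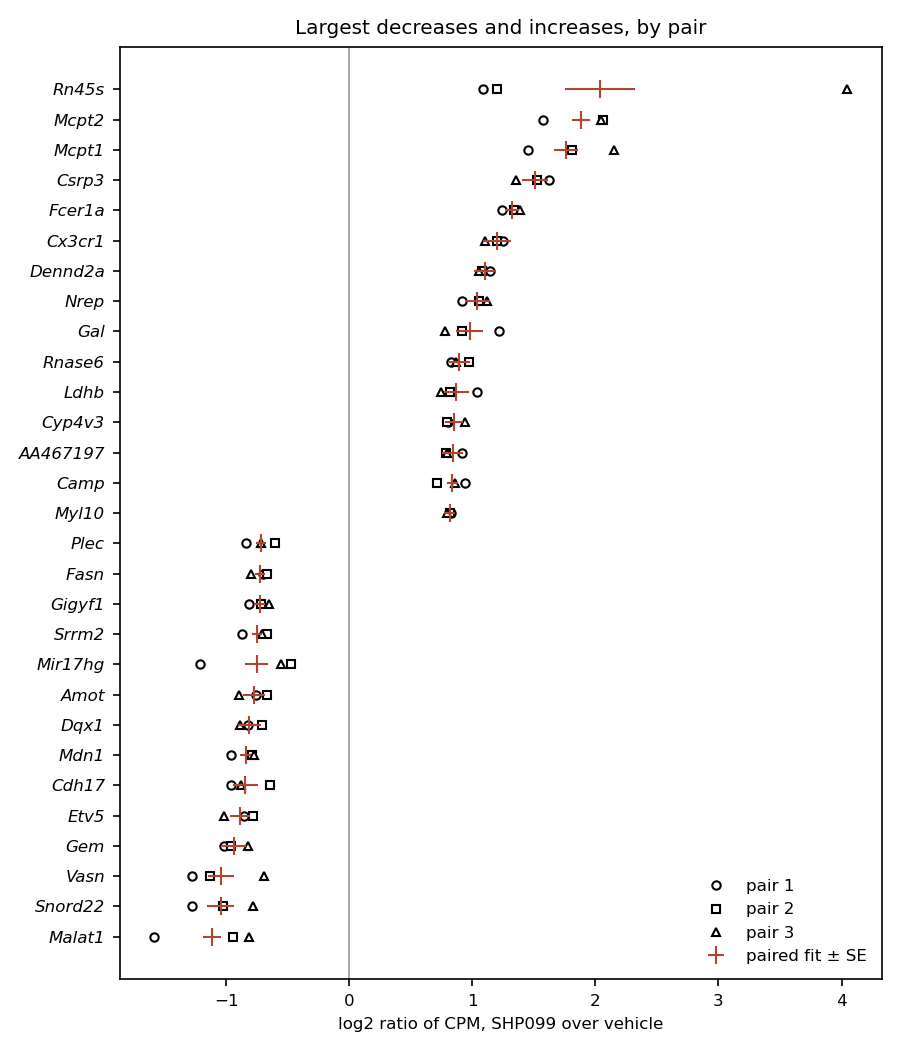
Log2 ratio of CPM, SHP099 over vehicle, in each of the 3 pairs (open symbols) for the 15 largest increases and 14 of the 15 largest decreases, with the estimate of the paired fit ± SE in red. Predicted gene models and clone names were left out of the ranking. The spread between pairs is widest for Rn45s, with pair 3 at 4.05 against 1.09 and 1.20 in pairs 1 and 2.

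The largest changes by fold were ranked among genes called with and without the block whose higher group had a mean of at least 5 CPM, so the lower group could be below that. Predicted gene models, clone names and genes whose groups overlapped were left out. Most of the ranked genes not yet described belong to no list. Csrp3, a LIM-domain protein best known from muscle, rose from 2.45, 2.54 and 3.56 CPM to 7.66, 7.42 and 9.2 CPM (1.51 ± 0.11; adjusted p = 1.8e-12). Cx3cr1, the fractalkine receptor gene and a member of the monocyte list, rose by 1.20 ± 0.12 from a low level of 2.2 to 2.54 CPM. Dennd2a, Nrep, Gal (the neuropeptide galanin), Rnase6, Ldhb, Cyp4v3, AA467197 and Myl10 rose by 0.81 to 1.10 on the log2 scale. Among decreases, Vasn, a transmembrane binder of transforming growth factor beta, went from 9.05, 7.47 and 7.04 CPM to 3.71, 3.39 and 4.34 CPM (-1.04 ± 0.11). Gem, Cdh17, Dqx1, Amot and Mir17hg, the host of the miR-17-92 cluster and a member of the noncoding list, fell by 0.75 to 0.94 on the log2 scale. Srrm2, a large splicing protein of nuclear speckles, went from 696, 592 and 604 CPM to 380, 372 and 370 CPM (-0.75 ± 0.04; -0.56 with the length trend removed), and Gigyf1 and Plec fell by 0.73 ± 0.05 and 0.72 ± 0.04. Flna, Myh9 and Tln1, of the actin cytoskeleton, were among the largest losses in CPM, by 0.29, 0.31 and 0.38 on the log2 scale, and by 0.10, 0.12 and 0.17 with the trend removed.

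Direction went with transcript length across the table. Over 12543 genes with a length, the log2 fold change and the length had a Spearman correlation of -0.35, and -0.33, -0.27 and -0.34 in pairs 1 to 3, a description across genes. In the fifth of genes with the shortest transcripts 916 were called higher and 190 lower, and in the fifth with the longest 176 were higher and 1142 lower. With a smooth trend on length and GC content removed, these counts were 501 and 423, and 558 and 496, and 2825 genes were called higher (21.7%) and 2414 lower (18.6%) overall. Lists of very short or very long genes changed most. Cytosolic ribosomal protein genes, short transcripts, went from 41 of 77 higher and 1 lower to 4 higher and 19 lower. Without the block 9 were higher, beside 8.62% of all tested genes. Oxidative phosphorylation genes went from 26 of 49 higher and 1 lower to 10 and 6. Histone lysine methyltransferase and demethylase genes, long transcripts, went from 25 of 33 lower and 1 higher to 15 and 2; Kmt2a fell by 0.67 ± 0.05, and by 0.36 with the trend removed. PI3K, AKT and mTOR pathway genes went from 4 higher and 9 lower of 25 to 9 and 4, and TET, DNMT and IDH genes from 2 and 6 of 13 to 3 and 3. Whether the relation with length comes from the cells or the libraries was not tested. Counts in the RAS-ERK, nucleolar, lysosome, mast cell and secondary granule lists moved by at most 1 gene.

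**Figure D5:**
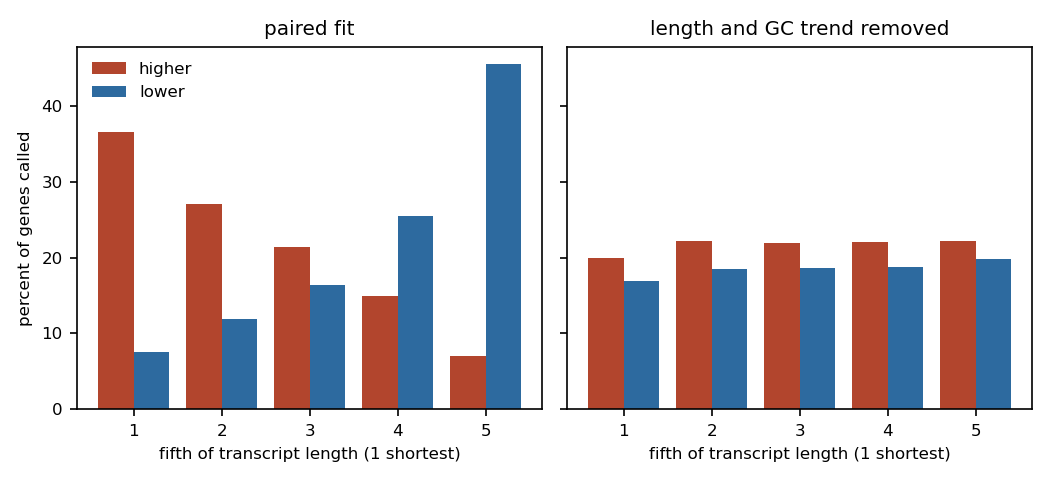
Percent of genes called higher (red) or lower (blue) in 5 classes of transcript length of equal size, from shortest (1) to longest (5), in the paired fit (left) and with a trend on length and GC content removed (right). On the left the share called higher falls from 36.5% to 7.01% and the share called lower climbs from 7.57% to 45.5%; on the right both shares stay between 16.9% and 22.2%.

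The remaining lists are read beside the 21.4% higher and 21.3% lower of all tested genes. These shares were 8.62% and 12.7% without the block, and 21.7% and 18.6% with the length trend removed. Interferon response genes were 15 of 34 higher and 3 lower (6 and 1 without the block), with Psmb9, an immunoproteasome subunit, up by 0.46 ± 0.05. NF-kB and inflammatory genes were 7 of 27 higher and 8 lower: the chemokine gene Cxcl2 fell by 1.45 ± 0.21 from at most 1.99 CPM, and Tlr2, a receptor for bacterial lipoproteins, rose by 0.42 ± 0.04, neither passing without the block (adjusted p = 0.079 and 0.23). MHC class II genes were 4 of 10 higher and 3 lower, with Ciita, their master activator, down by 0.65 ± 0.12 and H2-DMa up by 0.46 ± 0.05. Without the block 1 gene of that list was higher and 0 were lower. Proteasome subunit genes were 5 of 31 higher and 3 lower, below the shares with the block, and 2 and 12 with the length trend removed. Lymphoid genes were 3 of 7 higher, dendritic cell genes 1 of 8 higher and 1 lower, and stromal and endothelial genes 1 of 8 higher, lists with several members left out by the filter on low counts.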

How the data were processed

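Libraries were made from total RNA with a TruSeq stranded mRNA kit, per the labels' protocols. Raw gene counts were deposited by the authors for 24421 symbols. FastQC, STAR, Subread, featureCounts and the build mm10 appear in the submitters' processing notes with no version; which gene annotation and which strand setting were used is not given in the sources used here. The column of SHP099 replicate 3 differs from its sample title in 1 character and was taken as the sole sample of that genotype, number and treatment.

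Counts of the 6 mutant libraries entered edgeR 4.0.16 (R 4.3.3), with filterByExpr (minimum count 10; 11417 genes left out), TMM scaling, and a quasi-likelihood model of treatment with the replicate number as a block, two-sided, with Benjamini-Hochberg adjustment over 13004 genes at 0.05. The block was made the main fit because the series description names cultures from individual mice, and the unblocked counts are printed beside it. Same-numbered libraries deviated together from their group means (correlations across genes 0.54, 0.57 and 0.56). The biological coefficient of variation was 3.98% with the block and 9.11% without. The paired model has 2 residual degrees of freedom and borrows spread across genes. Tested on simulated data (13004 genes, 200 changed, mouse effects kept, 5 draws), the paired fit recovered 59.7%, 85.1% and 97.3% of genes changed by 0.25, 0.5 and 1 log2 units with 4.62% of calls false. Without the block these were 5.37%, 55.5%, 76.4% and 0%. The draws used mouse effects and the dispersions of the paired fit, so they cannot decide whether the block is right. Far fewer genes were changed than the 5555 called in the data. Neither a length trend nor the difference of SHP099 replicate 3 was drawn. No library was counted as a duplicate, since replicates differed beyond sampling noise (chi-square per degree of freedom 10.5 to 110).

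CPM values use TMM-scaled library sizes. Errors of log2 fold changes are SE taken from the quasi-likelihood test, as the log2 fold change over the square root of its F value. They are not the spread between the 3 pairs. Alternatives were no block, all 9 libraries, RLE factors, DESeq2 1.42.0, other filters, pairs or libraries left out, Rn45s left out of library sizes, legacy quasi-dispersion, and a lowess trend (span 0.3) on length and GC content from GENCODE M21 on GRCm38 (the mm10 assembly; 23376 symbols matched). The unblocked trend fit was chosen after seeing the data. The comparison and the 46 gene lists were chosen with earlier results of these data known, and motifs, histone genes and the lists led with were chosen after the values were seen. Genes were named by rule: Ptpn11, Tet2, Flt3 and Rn45s; the 15 largest increases and decreases with a mean of at least 5 CPM in the higher group, called in both fits, 3 pairs the same way and no overlap; the 5 largest CPM gains and losses; and up to 4 members of smallest p per list. Predicted gene models and clone names were left out of the ranking by fold. Other genes (Etv4, Fos, Jun, Phlda1, Dusp4, Dusp5, Mpo, Kit, Hdc, Ccnd3, Tfeb, Tfe3, Ctsd, Atp6v0d1, Atp6v1a, Mcoln1, Gla, Rmrp, Lars2) were added after their values were seen, and not every gene the rule takes is reported.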

Additional observations from a re-analysis of the deposited data

How the results depend on the processing

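Fewer genes were called without the replicate block. In the order higher and lower, the paired fit gave 2785 and 2770 genes, the fit with no replicate block 1121 and 1651, that over all 9 libraries 1180 and 1733, that with the length and GC trend removed and no block 971 and 1176, and DESeq2 with the block 1826 and 1718. Fits with 1 pair left out kept the block, and fits with 1 library left out had none. With 1 pair left out the counts ran from 1894 to 2493 higher and from 1969 to 2589 lower. With 1 library left out they ran from 531 to 894 higher and from 854 to 1265 lower. The cause of the lower counts of DESeq2 was not tested. Of 986 list members tested in the paired fit, 331 were higher and 259 lower with the block, and 124 and 171 without. Over all tested genes the shares were 21.4% and 21.3% with the block, and 8.62% and 12.7% without. List members gave 126 and 170 over 9 libraries, and 84 and 163 unblocked with the trend removed. Leaving out 1 pair gave 248 to 328 and 178 to 257, and leaving out 1 library 65 to 123 and 109 to 140. In the same order of settings (no block, 9 libraries, trend removed without block, and the range with 1 pair or library left out), RAS-ERK genes lower were 11, 12, 10 and 6 to 18; secondary granule genes higher 10, 7, 6 and 7 to 18; monocyte genes higher 4, 4, 4 and 2 to 14; mast cell genes higher 9, 9, 7 and 5 to 18; megakaryocyte genes higher 3, 3, 1 and 1 to 19; and lysosome genes higher 18, 19, 15 and 14 to 30. With 1 pair left out, RAS-ERK counts were 14 to 18, monocyte 13 to 14 and megakaryocyte 13 to 19. With 1 library left out they were 6 to 11, 2 to 4 and 1 to 5. Granule, mast cell and lysosome counts were 16 to 18, 17 to 18 and 25 to 30 with 1 pair left out. They were 7 to 8, 5 to 11 and 14 to 20 with 1 library left out. Chaperone genes lower were 12 over 9 libraries, 9 to 20 with 1 pair and 4 to 10 with 1 library left out. Purine and pyrimidine genes lower were 12 to 14 and 9 to 12. Nucleolar counts lower stayed within 1.5 times of 47 in all settings run. Among 203 named genes and the 19 alternatives, signs turned in 6. Bst2 went to -0.0242 and Tet3 to 0.0426 with the length and GC trend removed, and to -0.0237 and 0.0423 without the block as well. With 1 pair or library left out Ptpn11 ran from -0.0213 to 0.12, Flt3 from -0.14 to 0.37, Gpnmb from -0.019 to 0.64 and Car2 from -0.0194 to 0.47. Fits with 1 pair left out have 1 residual degree of freedom, so their counts are descriptions. The 11417 genes left out by the filter on low counts were not tested.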
